A study of Mus musculus with 6 samples.

Results

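The genes described here are 9 genes of the megakaryocyte and platelet programme, Pf4, Ppbp, Itga2b, Itgb3, Gp9, Gp1bb, Gp6, Vwf and Treml1. They were chosen by name as columns of the UMI count table, 9 of its 27998 gene columns. Of the 9, 6 had a UMI in at least 3 of the 5872 cells kept, and the other 3 are accounted for below. The cells were immortalized granulocyte-macrophage progenitors of the mouse (iGMPs), grown from bone marrow of the strain labelled C57BI/6 that carried a lysozyme-driven GFP reporter (Lys-GFP). In all 6 libraries they also carried HOXA9 as a fusion with the hormone-binding part of the estrogen receptor (ER-HOXA9) and were cultured in a medium with stem cell factor. CAF-1 OFF cells were of a clone with an shRNA (shChaf1b) against Chaf1b, which encodes part of the histone chaperone CAF-1, and were kept in 150 ng/ml estradiol (E2) while 500 µM IPTG switched the shRNA on for 48 or 96 h. HOXA9 OFF cells were of a clone with a spacer control shRNA (shCTRL), from which estradiol was withdrawn for 48 or 96 h without IPTG, so that HOXA9 was no longer active. Each arm had its own 0 h library, with estradiol and without IPTG. Each arm is 1 clone and each group 1 library, so that condition, clone and library cannot be told apart and no difference below has a replicate check.

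Megakaryocytes are the bone marrow cells that shed platelets, and they carry in advance the adhesion receptors and granule cargo that platelets use at a wound. Pf4 (platelet factor 4) and Ppbp (pro-platelet basic protein) are CXC chemokines packed into the α-granules. Itga2b (CD41) and Itgb3 (CD61) are the subunits αIIb and β3 of the fibrinogen receptor. Gp9 and Gp1bb join Gp1ba and Gp5 in the GPIb-IX-V complex, which binds the Vwf (von Willebrand factor) that megakaryocytes and endothelium store. Gp6 is the collagen receptor and signals through the Fc receptor γ chain Fcer1g, and Treml1 is a receptor held in α-granules. Pf4, Ppbp and Vwf are thus secreted, while the other 6 genes encode membrane proteins.

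The libraries held 3524285 to 5589486 UMIs in 473 to 1510 kept cells, with a median of 2043.5 to 8660 UMIs per cell. HOXA9 OFF at 96 h was the shallowest per cell, so shares of cells were taken after each cell had been thinned to 1300 UMIs. Levels are given as CPM, the UMIs of a gene per 1000000 UMIs of its library, and values in a row follow the times 0, 48 and 96 h. The targeted gene Chaf1b had 35.6, 3.22 and 6.49 CPM in the CAF-1 OFF arm. HOXA9 OFF cells had 51.5, 15.3 and 1.13 CPM, so that the later libraries of both arms were lower. All 6 early granulocyte markers were found in every library, and their sum ran from 193 CPM in HOXA9 OFF at 96 h to 12997 CPM in CAF-1 OFF at 96 h. The limit on mitochondrial UMIs removed 0.198% to 66.2% of the barcodes of a library, most in the uninduced libraries. Of 7787 barcode sequences, 34 were present in more than 1 library.

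To show where the genes lie, positions and sequences were taken from the RefSeq annotation of GRCm38. Pf4 (chr5:90772435-90773383) and Ppbp (chr5:90768518-90770063) are neighbours in the CXC chemokine cluster, 3.9 kb apart from start to start. Both integrin subunits lie on chromosome 11, Itga2b at chr11:102453297-102469883 and Itgb3 at chr11:104608000-104670476. Gp9 (chr6:87776131-87779786) and Vwf (chr6:125552948-125686679) lie on chromosome 6, Gp6 at chr7:4362853-4397851, Treml1 at chr17:48359916-48367176 and Gp1bb at chr16:18620319-18622403. Promoter entries were matched for 7 of the 9 genes. The 250 bases before the start site of the chemokine neighbours Pf4 and Ppbp and of Itga2b are shown, since these genes had the largest folds over 0 h in CAF-1 OFF. They are chr5:90772185-90772434 on the plus strand, chr5:90768268-90768517 on the plus strand and chr11:102469884-102470133 on the minus strand. Each is written 5′ to 3′ up to the base before the start site, with motif matches in capitals.

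Pf4: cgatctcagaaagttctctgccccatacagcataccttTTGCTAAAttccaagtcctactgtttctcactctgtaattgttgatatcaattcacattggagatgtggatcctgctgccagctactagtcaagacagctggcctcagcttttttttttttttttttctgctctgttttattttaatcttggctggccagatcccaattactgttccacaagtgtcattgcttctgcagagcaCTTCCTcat

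Ppbp: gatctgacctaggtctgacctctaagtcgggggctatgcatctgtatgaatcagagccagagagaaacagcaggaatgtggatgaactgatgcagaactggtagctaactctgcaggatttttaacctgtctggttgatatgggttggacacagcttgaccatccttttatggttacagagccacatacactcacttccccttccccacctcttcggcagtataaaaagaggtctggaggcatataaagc

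Itga2b: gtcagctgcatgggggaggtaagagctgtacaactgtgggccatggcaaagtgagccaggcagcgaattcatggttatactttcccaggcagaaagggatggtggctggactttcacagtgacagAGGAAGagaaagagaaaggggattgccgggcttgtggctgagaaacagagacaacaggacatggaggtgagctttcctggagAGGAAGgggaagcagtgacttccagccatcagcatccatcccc

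The motifs searched on both strands were AGGAAG and CCGGAA for ETS factors, AGATAA and TGATAA for GATA factors, TGTGGT for RUNX factors and TTGCNNAA for C/EBP factors. None of these letter strings overlapped another match in the windows shown. The Pf4 window held TTGCNNAA 212 to 205 bases before the start site and AGGAAG on the opposite strand 9 to 4 bases before it. The Itga2b window held AGGAAG at 125 to 120 and at 43 to 38 bases before the start, and the Ppbp window held no match. Among the windows not shown, Gp9 held AGGAAG 16 to 11 bases and TGTGGT 171 to 166 bases before its start, both on the opposite strand. Gp6 held AGATAA 144 to 139 bases before its start, and Gp1bb and Treml1 held no match. An ETS string of either form was in 38.2% of 32851 RefSeq windows of this length, a GATA string in 16.6%, TGTGGT in 14.0% and TTGCNNAA in 9.56%. A match is a description of letters, not a binding site.

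To ask how far each gene stood from the uninduced cells, UMIs were summed over the cells of a library and later libraries were set against the 0 h library of the same arm. Pf4 was higher in both CAF-1 OFF libraries and lower in both HOXA9 OFF libraries. CAF-1 OFF cells held 94 Pf4 UMIs at 0 h, 2301 at 48 h and 13386 at 96 h, or 22.3 CPM (95% interval 18.0 to 27.3), 412 CPM (395 to 429) and 2481 CPM (2440 to 2524). HOXA9 OFF cells held 42, 11 and 18 Pf4 UMIs, which is 10.0 CPM (7.22 to 13.5), 2.07 CPM (1.03 to 3.71) and 5.11 CPM (3.03 to 8.07). Every interval of a CAF-1 OFF library lay above every interval of the HOXA9 OFF arm, the uninduced pair included. These intervals, like all others below, are exact and cover counting error only, not the spread between cultures. Intervals of levels and ratios pool the UMIs of all cells in a set and leave out the spread between cells as well. Against its own 0 h library, Pf4 was 18.5-fold higher (15.0 to 22.9) at 48 h and 111-fold higher (90.8 to 138) at 96 h of CAF-1 OFF. After estradiol withdrawal it was 4.84 times lower (2.45 to 10.4) at 48 h and 1.96 times lower at 96 h.

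**Figure D1:**
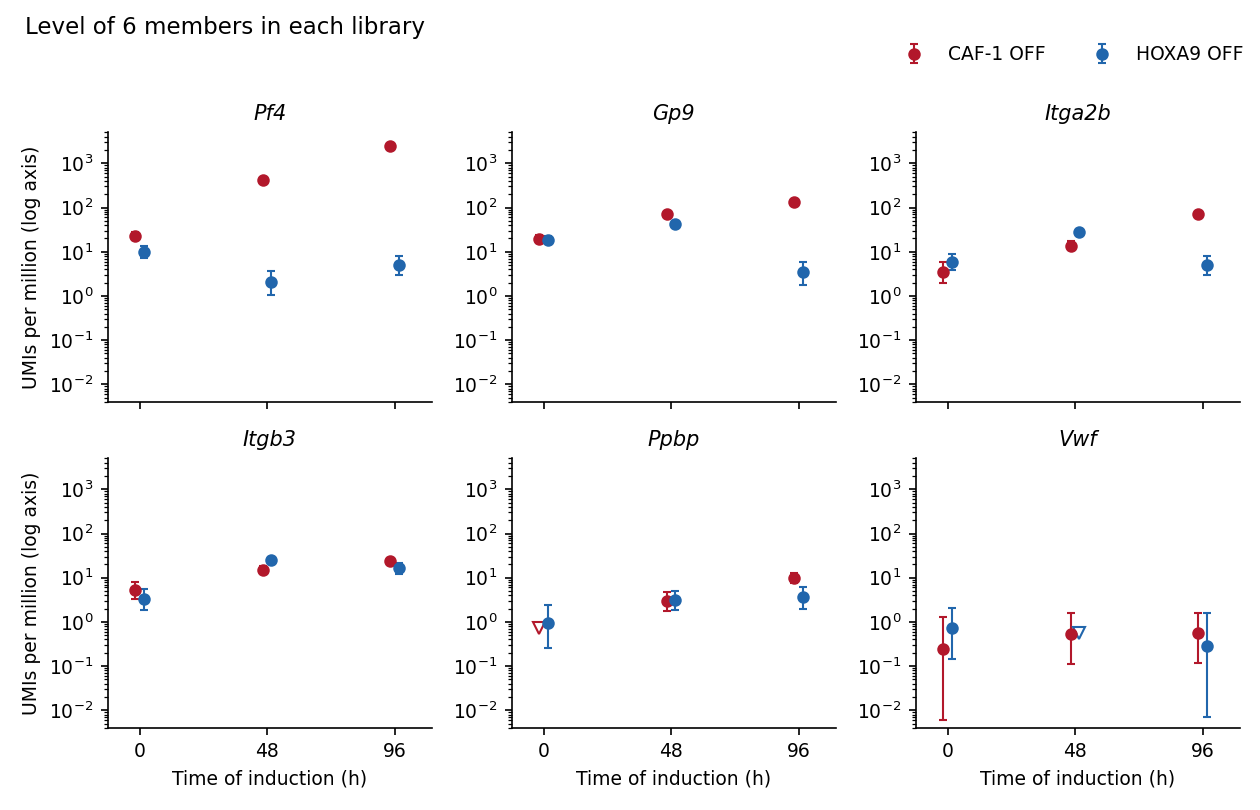
Levels of the 6 members found in at least 3 kept cells, in CPM on a log axis against time of induction in h, for CAF-1 OFF (red) and HOXA9 OFF (blue), with exact 95% counting intervals. Open triangles mark libraries with 0 UMIs, drawn at the floor of 3 UMIs. Pf4 in CAF-1 OFF goes from 22.3 to 412 and 2481 CPM, while Vwf stays near the floor in all 6 libraries.

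Ppbp, whose gene lies next to Pf4, was found in few UMIs. It had 0 UMIs in uninduced CAF-1 OFF cells, 17 at 48 h (3.04 CPM) and 54 at 96 h (10.0 CPM). Against the floor of 3 UMIs in the 0 h library this was at least 4.27-fold higher at 48 h and at least 14.1-fold higher at 96 h. In HOXA9 OFF, Ppbp had 4, 17 and 13 UMIs, with 3.69 CPM at 96 h and ratios of 3.35 (1.09 to 13.7) and 3.86 (1.19 to 16.3) to 0 h. The same 17 UMIs were spread very differently in the arms. In CAF-1 OFF at 48 h they came from 17 cells with 1 UMI each. Of these cells, 16 also held Pf4, in a library where 57.7% of all cells did without thinning. In HOXA9 OFF at 48 h, where 0.783% of all cells held Pf4, they came from 2 cells, neither with Pf4. Of the 17 UMIs, 15 were in 1 cell, which the interval of the ratio does not take into account. At 96 h of CAF-1 OFF the 54 Ppbp UMIs lay in 40 cells, and all 40 held a Pf4 UMI, in a library where 95.7% of all cells did.

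The subunits of the fibrinogen receptor were higher after CAF-1 depletion and, at 48 h, also after estradiol withdrawal. Itga2b had 15, 77 and 394 UMIs in the libraries of the CAF-1 OFF arm (3.56, 13.8 and 73.0 CPM). In those of the HOXA9 OFF arm it had 25, 149 and 18 UMIs (5.97, 28.1 and 5.11 CPM). Under CAF-1 depletion the folds over 0 h were 3.87 (2.21 to 7.25) and 20.5 (12.3 to 37.0). Under estradiol withdrawal Itga2b was 4.70-fold higher at 48 h, with a lower bound of 3.06, and its ratio at 96 h was 0.856 (0.440 to 1.63). Itga2b was thus highest at 96 h in one arm and at 48 h in the other, where at 96 h it could not be told from 0 h by counting error. With CAF-1 OFF, Itgb3 stood at 5.22, 14.8 and 23.9 CPM, from 22, 83 and 129 UMIs, and was 2.84-fold (1.76 to 4.78) and 4.58-fold (2.90 to 7.56) above 0 h. With HOXA9 OFF it stood at 3.34, 25.4 and 16.2 CPM, from 14, 135 and 57 UMIs, and was 7.61-fold (4.38 to 14.3) and 4.84-fold (2.66 to 9.41) above 0 h. Itgb3 thus stood above its 0 h level in all 4 later libraries, beyond counting error in each. Itgav, the other α partner of β3, reached 2-fold in neither arm by the measure used below. Its largest ratio to 0 h was 2.28 (1.38 to 3.86), from 5.97 to 13.6 CPM at 96 h of HOXA9 OFF.

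Of the GPIb-IX-V complex, only Gp9 was found in more than 2 UMIs in any library. Gp9 had 82, 410 and 711 UMIs in CAF-1 OFF (19.5, 73.4 and 132 CPM), 3.77-fold (2.97 to 4.84) and 6.77-fold (5.38 to 8.62) above 0 h. In HOXA9 OFF it had 78, 231 and 12 UMIs (18.6, 43.5 and 3.40 CPM), 2.34-fold higher (1.80 to 3.06) at 48 h and at 0.183 of its 0 h level (0.0906 to 0.338) at 96 h. The uninduced libraries did not differ in Gp9 beyond counting error, with a ratio of 0.957 (0.693 to 1.32). Gp1bb had 0 UMIs in all 6 libraries, and the gene overlaps Sept5, which had 0 or 1 UMI in each library. How the counting treated reads in that overlap is not given in the sources used here. Gp1ba had 2 UMIs and Gp5 1 UMI, all in CAF-1 OFF at 96 h.

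The ligand Vwf and the receptors Gp6 and Treml1 were near the limit of detection. Vwf had 1, 3 and 3 UMIs over the CAF-1 OFF time course and 3, 0 and 1 over that of HOXA9 OFF. Gp6 had 1 UMI in each of the 2 later HOXA9 OFF libraries and none elsewhere, and Treml1 had 2 UMIs in CAF-1 OFF at 48 h and none elsewhere. No fold is given for these 3 genes or for Gp1bb, since a library of 3 UMIs stands at only 0.537 to 0.851 CPM and a difference at this depth was not detectable. Fcer1g, through which Gp6 signals and which mast cells and granulocytes also use, had 797, 835 and 943 CPM over the CAF-1 OFF time course. Over that of HOXA9 OFF it had 939, 2047 and 3105 CPM.

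Across the 9 genes, differences were counted by a fixed size of at least 2-fold after 10 CPM had been added to both values, which understates the change of low genes. At 48 h of CAF-1 OFF 2 of 9 genes were higher by this measure, Pf4 (log2 ratio 3.71) and Gp9, and 0 were lower. Of 13485 genes found in at least 3 cells, 1.27% were higher and 0.0297% lower. At 96 h 5 of 9 were higher and 0 lower, against 2.75% and 0.386% of all genes. These were Pf4 (6.27), Itga2b (2.61), Gp9 (2.27), Itgb3 (1.16) and Ppbp, which at 1.00 lay just inside the limit. In HOXA9 OFF at 48 h 2 were higher, Itgb3 (1.41) and Itga2b (1.25), against 6% of all genes higher and 8.4% lower. At 96 h 0 were higher and Gp9 was lower (−1.09), against 10.3% and 18.3%. Between the uninduced libraries 0 of 9 differed by this measure, against 0.349% higher and 0.0519% lower in the HOXA9 OFF clone, and Pf4 was 2.23 times lower there (log2 ratio −0.69). The median log2 ratio of the 9 genes in the 4 comparisons, in the order above, was 0.38, 1.00, 0.03 and 0, beside 0.03, 0, −0.03 and −0.07 over all genes. Genes with few UMIs can hardly reach this size. Of the 4789 genes that averaged 20 CPM or more over the libraries, 3 of them members, 2.76% and 5.22% were higher in CAF-1 OFF at the respective times.

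Summed over the 9 genes, CAF-1 OFF cells held 50.8, 518 and 2721 CPM, of which Pf4 made up 43.9%, 79.5% and 91.2% of the UMIs, counted at the 3′ end and not divided by length. HOXA9 OFF cells held 39.6, 102 and 34.0 CPM, of which Pf4 made up 25.3%, 2.02% and 15%. The HOXA9 OFF libraries differed in other abundant genes too. The late granulocyte markers summed to 5.01, 9043 and 144930 CPM there, against 24.4, 598 and 759 CPM with CAF-1 OFF, and the part of this in the levels of the 9 genes was not tested. When the libraries were scaled by TMM factors, Gp9 at 96 h of HOXA9 OFF no longer reached the 2-fold size (log2 ratio −0.91) and Itgb3 did (1.24). The same scaling put Ppbp at 96 h of CAF-1 OFF below that size (0.96), which left 4 members higher, and Gp9 at 48 h of HOXA9 OFF above it (1.13), which made 3.

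To see how many cells carried these transcripts, cells with a UMI were counted after thinning. Pf4 was found in 22 of 633, 292 of 907 and 741 of 902 CAF-1 OFF cells, or 3.48% (2.19 to 5.21), 32.2% (29.2 to 35.3) and 82.2% (79.5 to 84.6). In the HOXA9 OFF arm it was present in 4 of 472, 2 of 1376 and 3 of 1376 cells, or 0.847%, 0.145% and 0.218%. Without thinning the shares were 12.8%, 57.7% and 95.7% against 7.19%, 0.783% and 0.662%. Most CAF-1 OFF cells at 96 h thus held a Pf4 UMI, and hardly any HOXA9 OFF cell did. No cell type that lacks Pf4 could be set apart within the CAF-1 OFF libraries, so the share that free RNA gives there was not measured.

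The other genes were found in fewer cells. Gp9 was present in 3.16%, 9.15% and 15.5% of CAF-1 OFF cells and in 2.54%, 5.16% and 0.291% of HOXA9 OFF cells. Itga2b was present in 0.632%, 1.65% and 9.53% of CAF-1 OFF cells and in 0.847%, 3.63% and 0.436% of HOXA9 OFF cells. Itgb3 stayed at or below 4.29% in every library, and Ppbp at or below 0.665%. At 1300 UMIs per cell a gene of low level gives a UMI in few cells, so that such shares limit cells with a UMI and not cells that express the gene.

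Within the later CAF-1 OFF libraries, Pf4 was spread unevenly over the cells. Thinned CAF-1 OFF cells held a mean of 0.590 Pf4 UMIs at 48 h and 3.31 at 96 h. At 96 h the median was 2.5 and the highest cell held 20, and 27.5% of cells held at least 5. The variance was 2.10 times the mean at 48 h and 2.95 times the mean at 96 h, where counts drawn at a single rate would give a ratio of about 1. Cells at 0 made up 67.8% and 17.8%, against 55.4% and 3.64% for such counts at the same mean. For Gp9 and Itga2b the same ratio lay between 0.967 and 1.28 in all 6 libraries, at means of at most 0.173 UMIs per cell, where this ratio cannot show whether the cells differ.

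**Figure D2:**
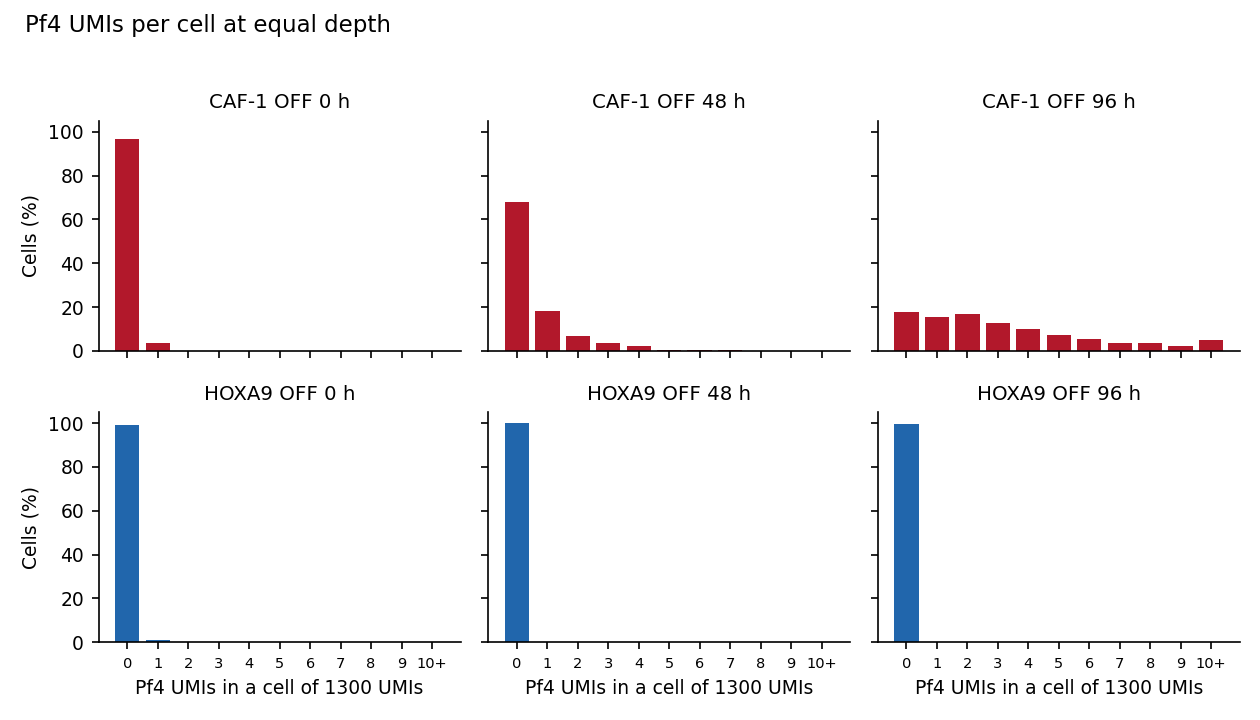
Pf4 UMIs per cell after thinning to 1300 UMIs, as the percent of cells at each count (the last bar holds all cells with 10 or more), with 1 panel per library. In CAF-1 OFF the share at 0 goes from 96.5% to 67.8% and 17.8%, and in HOXA9 OFF no cell holds more than 1.

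To ask whether the transcripts met in the same cells, co-detection was set beside the product of the single shares. UMIs of at least 2 members were found in 0.632%, 5.18% and 23.7% of the thinned cells with CAF-1 OFF and in 0%, 0.436% and 0% of HOXA9 OFF cells, where a floor of 3 cells is 0.636% of 472 and 0.218% of 1376 and the exact intervals reach 0.778% and 0.268%. At 96 h of CAF-1 OFF, 14.9% of cells held none of the 9 genes, 61.4% held 1, 21.5% held 2 and 2.22% held 3, the most in any cell. Pairs with Pf4 lay close to the product of the single shares at 96 h. With Pf4 in 82.2% of these cells, they had little room above it. Of the 86 cells with Itga2b the product puts 70.6 with Pf4, and of the 140 with Gp9 it puts 115. Closeness to the product therefore says little about joint expression at 96 h. Pf4 and Itga2b were together in 77 cells at 96 h, 8.54% (6.80 to 10.6) against a product of 7.83%. Pf4 and Gp9 were together in 123 cells, 13.6% against a product of 12.8%. At 48 h Pf4 met Itga2b in 4 cells (0.441% against 0.532%) and Gp9 in 34 cells (3.75% against 2.95%). Itga2b and Itgb3, which form 1 receptor, met in 1 cell at 96 h of CAF-1 OFF, where the product gives 2.67 cells, and in 0 cells at 48 h of HOXA9 OFF, where it gives 2.14. Such small numbers show neither joint nor separate expression at this depth. Pf4 shared its cells with Elane (neutrophil elastase) in 20.5% of cells at 48 h and 52.5% at 96 h with CAF-1 OFF, against products of 12.4% and 49.5%.

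**Figure D3:**
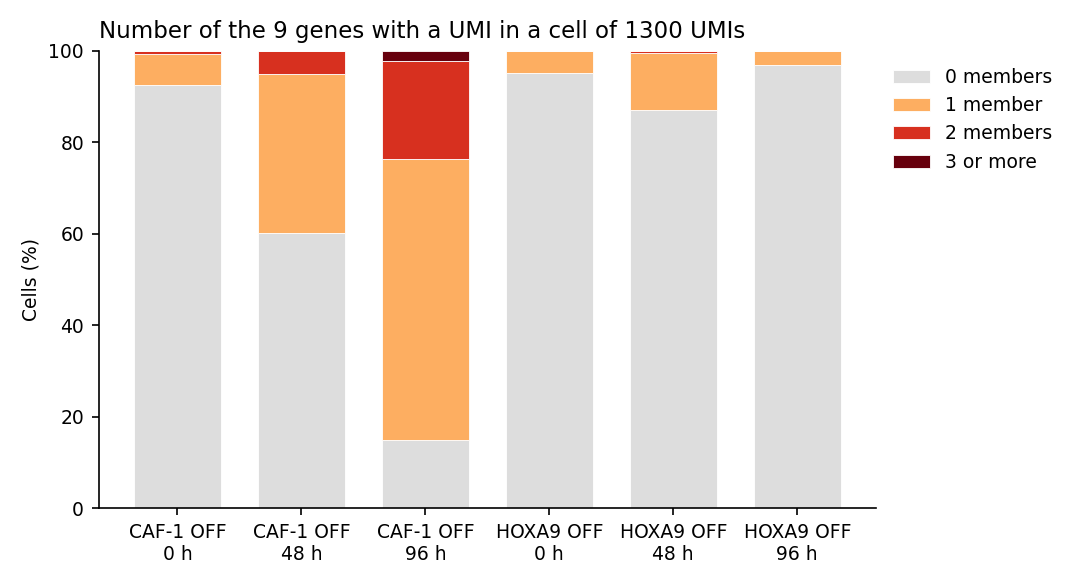
Number of the 9 genes with a UMI in a thinned cell, as the percent of cells in each of the 6 libraries. At 96 h of CAF-1 OFF 61.4% of cells hold 1 of the genes and 23.7% at least 2, and in HOXA9 OFF at least 87.1% of cells hold none.

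To describe which cells carried Pf4, thinned cells with and without a Pf4 UMI were compared within each CAF-1 OFF library, with Pf4 left out of the totals. At 48 h the 292 cells with Pf4 held more granule transcripts of eosinophils, basophils and neutrophils than the 615 cells without. Prg2, the major basic protein of eosinophils and mast cells, was at 673 CPM in cells with Pf4 and at 115 CPM in those without, 5.85-fold higher (4.59 to 7.50). Mcpt8, a basophil protease, was 3.05-fold higher (2.51 to 3.73), Prg3 3.02-fold (2.34 to 3.92), and Elane 2.55-fold (2.27 to 2.87). The list of 7 eosinophil markers was 4.30-fold higher (3.62 to 5.13) through Prg2 and Prg3, while Epx, the eosinophil peroxidase, had 0 UMIs in both sets. The late granulocyte list was 2.23-fold higher, the mast cell or basophil list 1.64-fold and the early granulocyte list 1.35-fold. The erythroid list had a ratio of 0.921 (0.727 to 1.16) and the stem cell list of 0.904, with an interval that also spans 1. The other 8 members summed to 129 CPM in cells with Pf4 and 93.8 CPM in those without, a ratio of 1.38 (0.941 to 2.00) that counting error does not set apart from 1.

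At 96 h the 161 cells without a Pf4 UMI were closer to the 741 cells with one. Prg3 was 3.13-fold higher (2.17 to 4.66), Mcpt8 1.84-fold and Prg2 1.53-fold in cells with Pf4, and the late granulocyte list had a ratio of 1.17 (0.984 to 1.41). The other 8 members were here 1.69-fold higher (1.17 to 2.52) in cells with Pf4, with Itga2b at 82.3 against 47.8 CPM and Gp9 at 142 against 95.6 CPM, neither set apart by its own interval. A cell was placed in a set by a single gene at low depth, so that both sets hold cells of the other kind.

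Cells that carried the surface genes were then described in the same way, by splits chosen after the Pf4 result had been seen. At 96 h of CAF-1 OFF the 86 cells with Itga2b had Pf4 at 3187 CPM against 2481 CPM in the 816 others, 1.28-fold higher (1.15 to 1.44). They had more Prg2 (1.90-fold, 1.64 to 2.21) and less Elane (0.595, 0.479 to 0.732). The 83 cells with Gp9 at 48 h also had more Prg2 (3.22-fold, 2.49 to 4.13), more Cpa3, a mast cell and basophil protease (2.09-fold, 1.80 to 2.43), and less Elane (0.630, 0.486 to 0.803). Pf4 itself was at 649 CPM in them against 434 CPM in the others (interval of the ratio 1.15 to 1.93). In these splits Elane was lower in cells with the surface gene, whereas it was higher in cells with Pf4, and the difference itself was not tested. For Gp9 at 96 h the Elane ratio could not be told from 1 (0.882 to 1.16).

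In HOXA9 OFF at 48 h, where Pf4 was nearly absent, the surface genes lay in cells with other markers. The eosinophil list went there from 1470 CPM at 0 h to 19274 CPM. The 50 cells with Itga2b had Prg2 at 64005 CPM against 15004 CPM in the 1326 others, 4.27-fold higher (4.13 to 4.41). They also had more Epx (5.39-fold, 2.80 to 9.66), Ms4a2, a chain of the IgE receptor (8.85-fold, 3.66 to 19.4), and Gata2 (4.53-fold, lower bound 1.72), and only 0.140 (0.115 to 0.169) of the late granulocyte list. The 59 cells with Itgb3 had the eosinophil list 1.95-fold higher (1.88 to 2.03). The 71 cells with Gp9 also had the eosinophil list higher, 1.63-fold (1.57 to 1.69). They differed from those with Itga2b in other lists. Their late granulocyte list was 1.82-fold higher (1.74 to 1.91) and their mast cell or basophil list at 0.394 (0.232 to 0.627) of the level in other cells.

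**Figure D4:**
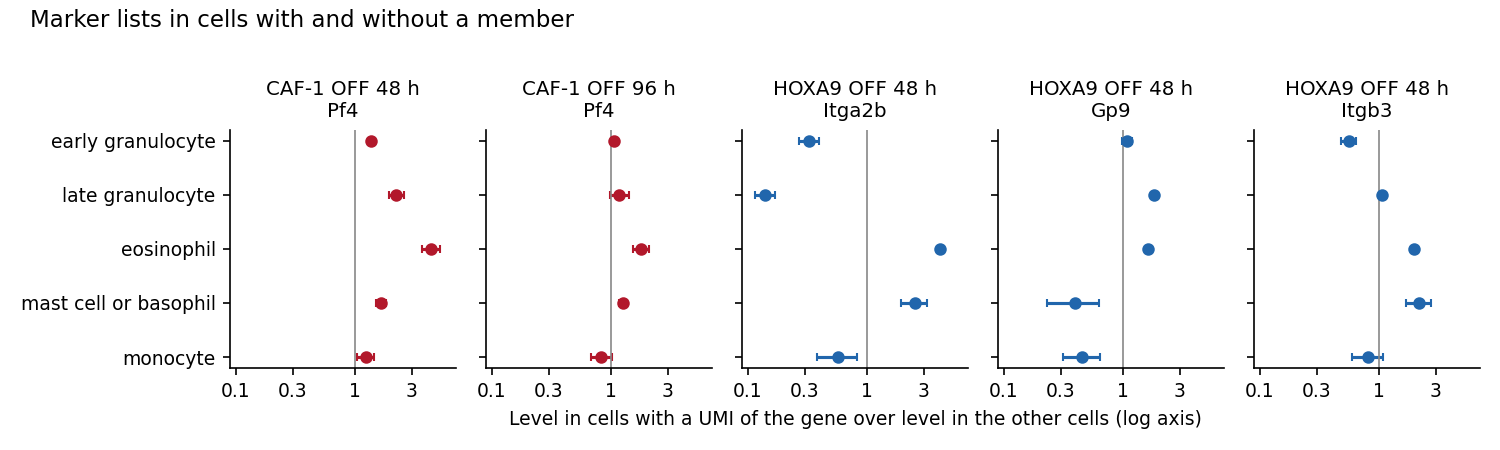
Ratio of the summed level of 5 marker lists in thinned cells with a UMI of a gene to the level in the other cells, on a log axis with exact 95% counting intervals (hidden by the points where narrow). CAF-1 OFF (red) was split by Pf4 and HOXA9 OFF at 48 h (blue) by Itga2b, Gp9 and Itgb3. The eosinophil list is above 1 in all 5 panels (4.30, 1.78, 4.13, 1.63 and 1.95), and the late granulocyte list is at 0.140 for Itga2b and at 1.82 for Gp9.

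To find genes that followed Pf4, Pearson's r of log2(CPM + 10) over the 6 libraries was ranked among 4361 genes that varied. The 6 points share clones and 0 h states, and r is a description. The 10 genes most like Pf4 were Tgm1 (0.997), Eng (0.996), Myct1 (0.993), Folr1 and Ptger3 (both 0.991), then Gm364, Dclre1a, Fbp1, Flt1 and Nlrp10 (lowest 0.989). Eng (endoglin) and Flt1 (a VEGF receptor) are best known from endothelium, Tgm1 is a transglutaminase and Fbp1 a gluconeogenic enzyme. Fbp1 went from 8.07 to 77.8 and 215 CPM with CAF-1 OFF, whereas HOXA9 OFF libraries had 6.68, 5.84 and 0.851 CPM. Myct1 went from 10.4 to 77.1 and 160 CPM with CAF-1 OFF and had 5.01, 0 and 0 CPM in the other arm. The member genes were less alike: Gp9 had r = 0.834 (place 150), Itga2b 0.693 (place 356) and Itgb3 0.355 (place 2010). Endothelial markers summed to 55.5, 70.7 and 85.3 CPM over the CAF-1 OFF time course, from 1 to 3 of 6 genes. Across single cells, the genes most correlated with Pf4 at 48 h of CAF-1 OFF were Slpi (0.41), Ms4a3 (0.36), Mcpt8 (0.36), Tmsb4x (0.35) and Elane (0.33), over 907 cells of 1 library. At 96 h they were Ifitm1 (0.32), Mcpt8 (0.27), Ifitm3 (0.22), Lcn2 (0.20) and Tgm3 (0.15), over 902 cells. Mcpt8 was on both lists, and no member gene was on either.

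Because Pf4 and Ppbp lie among other CXC chemokines, the genes around each member were examined. Cxcl3, a neutrophil attractant 13.7 kb from Pf4, had 0, 183 and 561 UMIs in CAF-1 OFF (0, 32.7 and 104 CPM) and 0, 1 and 6 in HOXA9 OFF. It was at least 46.0-fold higher at 48 h and at least 146-fold higher at 96 h of CAF-1 OFF. Cxcl2, 131 kb away, stood at 0.237, 8.59 and 24.5 CPM with CAF-1 OFF, from 1 UMI at 0 h with a ratio of 103 (18.2 to 4104) at 96 h. With HOXA9 OFF it stood at 0.477, 3.58 and 109 CPM, a ratio of 229 (62.9 to 1897) from 2 UMIs. Cxcl5 and Cxcl1 had 0 UMIs in all libraries. Pf4 and Cxcl3 were therefore highest in the later CAF-1 OFF libraries, and Cxcl2 in HOXA9 OFF at 96 h.

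**Figure D5:**
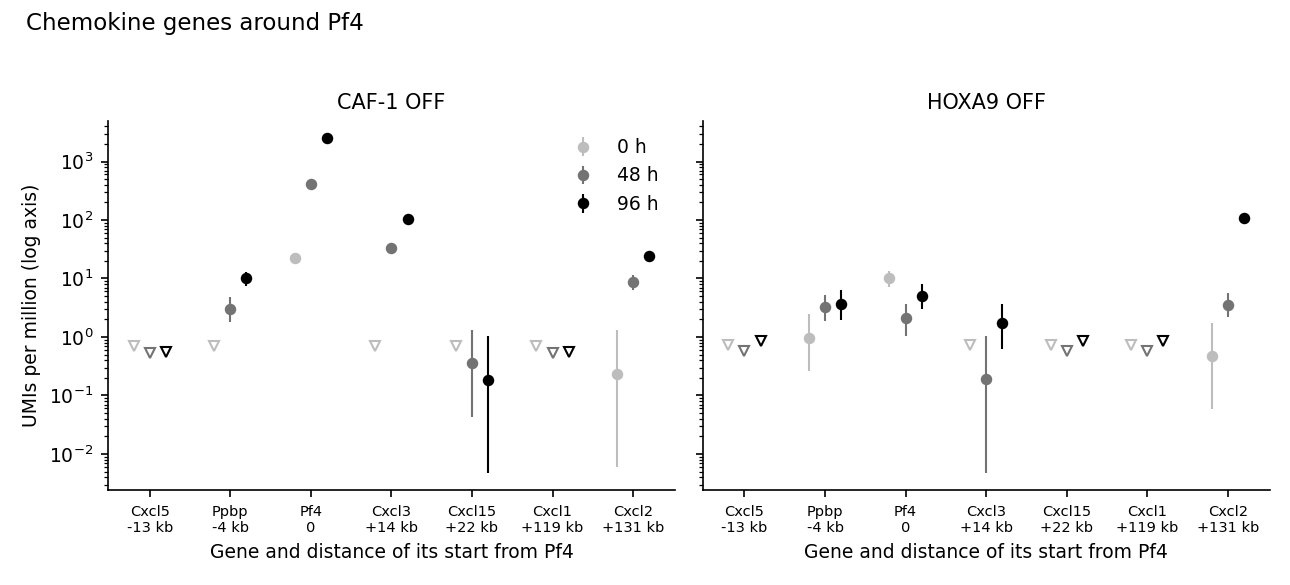
Levels of the 7 CXC chemokine genes around Pf4 in CPM (log axis), in genome order with the distance of each start from that of Pf4, for each arm and time, with exact 95% counting intervals. Open triangles mark 0 UMIs, drawn at the floor of 3 UMIs. Pf4 and Cxcl3 are highest in CAF-1 OFF, Cxcl2 reaches 109 CPM at 96 h of HOXA9 OFF, and Cxcl5 and Cxcl1 lie at the floor.

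Of 80 neighbours, 5 coding genes on either side of each member, 78 were in the table. The 78 include genes with 0 UMIs in every library, such as Afm, Cxcl5 and Slc4a1, which cannot reach 2-fold. The shares of all genes are over genes found in at least 3 cells, so the 2 are not on the same base. At 48 h of CAF-1 OFF 2 of the 78 were at least 2-fold higher and 0 lower, against 1.27% of all genes higher, and at 96 h 7 were higher and 0 lower, against 2.75%. Besides Cxcl2 and Cxcl3 the 7 were Tnnt1 near Gp6, Trem3 near Treml1, Grn near Itga2b, Cd9 near Vwf and Afp near Ppbp. Afp (α-fetoprotein) had 14.2, 52.1 and 45.8 CPM over that time course. In HOXA9 OFF 5 were higher and 4 lower at 48 h, against 6% and 8.4% of all genes, and 8 were higher and 10 lower at 96 h, against 10.3% and 18.3%. Those higher at either time were Arhgap25, B430306N03Rik, Cd9, Cxcl2, Grn, Tnfrsf1a, Scnn1a, Trem2 and Trem3. Those lower included Ccdc43, Cdc45, Cnbp, Copg1, Isy1, Mettl2, Mthfd2l, Myl4 and Tnnt1. Cd9, Cxcl2, Grn and Trem3 were thus higher in both arms, and Tnnt1 higher in one and lower in the other.

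To place the 9 genes in the wider megakaryocyte programme, 67 further genes were described in 4 lists. Of these, 10 had no UMI in any library and 20 had at most 3 UMIs in each. At least 2-fold higher and lower were 2 and 0 of the 67 at 48 h of CAF-1 OFF, against 1.27% and 0.0297% of all genes, and 5 and 1 at 96 h, against 2.75% and 0.386%. In HOXA9 OFF they were 8 and 4 at 48 h, against 6% and 8.4%, and 9 and 9 at 96 h, against 10.3% and 18.3%. The median log2 ratios were 0.03, 0.07, 0 and 0. The medians lay close to those of all genes, in lists of which many genes had few UMIs.

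Among 14 transcription factors, Gfi1b, a repressor needed for megakaryocytes and erythroid cells, went from 5.93 to 22.9 and 32.4 CPM with CAF-1 OFF, 3.86-fold (2.50 to 6.19) and 5.47-fold (3.58 to 8.68) above 0 h. Gata1, the activator of the Itga2b, Pf4 and Gp9 genes in megakaryocytes, was at 1.19, 4.47 and 12.4 CPM, 10.5-fold higher (4.27 to 33.3) at 96 h from 5 UMIs at 0 h. Gata1 had 5.01, 8.29 and 6.53 CPM in HOXA9 OFF, where the uninduced library stood 4.22-fold above that of CAF-1 OFF (1.55 to 14.3). Meis1, a HOXA9 partner, was lower at 96 h of CAF-1 OFF and at both times in HOXA9 OFF, from 50.1 to 3.77 and 2.84 CPM in the latter. Runx1 in CAF-1 OFF lay just under the 2-fold size at 96 h (15.4, 29.0 and 40.8 CPM). In HOXA9 OFF, Fli1, Mafg and Mef2c were higher at both times and Runx1 at 48 h, and Gata2 and Tal1 were lower at 96 h.

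Among 23 receptors, the tetraspanin Cd9 was 3.70-fold (3.02 to 4.58) higher at 96 h of CAF-1 OFF and 7.66-fold (6.60 to 8.91) higher at 96 h of HOXA9 OFF. Fcer1g was higher at both times of HOXA9 OFF, F2rl3 (a thrombin receptor) lower at both and Itga6 lower at 96 h. Among 12 granule and secreted proteins, Thbs1 (thrombospondin 1) went from 27.3 to 83.9 and 94.7 CPM with CAF-1 OFF and much further with HOXA9 OFF, from 20.8 to 483 and 936 CPM. Clu (clusterin) was 3.91-fold (2.61 to 6.04) higher at 96 h of CAF-1 OFF and 11.6 times lower at 96 h of HOXA9 OFF, where Srgn was lower too. Among 18 cytoskeletal and signalling genes, 0 reached 2-fold in CAF-1 OFF. In HOXA9 OFF, Rgs18 and Tbxas1 were higher at 48 h, Bin2, Nbeal2 and Tbxas1 at 96 h, and Ctla2a and Nrgn were lower at both times.

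The megakaryocyte label of these genes was checked against genes that define the cell type. Gp1bb, Tubb1 (the platelet β-tubulin), Mmrn1 and Rab27b had 0 UMIs in every library, and Gp1ba, Gp5, Gp6, Treml1 and Vwf had at most 3 UMIs in any. CAF-1 OFF cells at 96 h held Pf4, Gp9, Itga2b and Itgb3 together with 12997 CPM of early granulocyte markers and 4039 CPM of mast cell or basophil markers, which stood at 333 CPM at 0 h. Erythroid markers went from 160 to 379 CPM. No library held the defining set of a megakaryocyte, and the genes are named here by their symbols.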

How the data were processed

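Single-cell 3′ libraries (10x Chromium v2) of live sorted iGMPs were made by the authors, aligned to mm10 (GRCm38) with Cell Ranger, version 3.0.1 in the submitters' processing notes, and deposited as whole-number UMI counts of 27998 gene columns in 7821 barcodes, with no normalization. Barcodes were assigned to libraries by name. Cells with 200 to 6000 genes and at most 10% mitochondrial UMIs were kept (5872, with 1949 barcodes removed). Doublets were left in. Scrublet called 125 cells, and an alternative omitted them. Counts were summed per library and divided by its total (CPM). Poisson intervals for CPM, conditional binomial intervals for folds and Clopper-Pearson intervals for shares are exact at 95%. A library at 0 UMIs was set to a floor of 3 UMIs. With 1 library per group no test was made. The log2 ratio, the fold interval and the thinning were tested on simulated data first. Python 3.11.15, NumPy 2.4.6, SciPy 1.17.1, pandas 2.3.3, Scanpy 1.11.5 and, for TMM factors, edgeR 4.0.16 were used. The members, lists and the rule for named genes (all members, wider-list genes and neighbours with a 2-fold difference, partner subunits, the 10 genes most like Pf4 over libraries and the 5 over cells) were chosen with earlier results of these data known. Positions and promoters came from RefSeq on GRCm38.p6. No promoter of Itgb3 or Vwf was matched. Some genes that the rule names are not reported here.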

Additional observations from a re-analysis of the deposited data

Results flagged for a closer look

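Groups of 1 library allow no search for outlying samples. The arms moved in opposite directions for 2 genes, and these differences were not tested. The log2 ratio of Pf4 to 0 h was 4.44 larger in CAF-1 OFF than in HOXA9 OFF at 48 h and 6.68 larger at 96 h. That of Gp9 was 3.36 larger at 96 h.

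Members were also found in barcodes that the mitochondrial limit had removed, above the level of the removed barcodes of the same arm at 0 h. Pf4 stood at 86.5 CPM there at 48 h and at 1552 CPM at 96 h of CAF-1 OFF, against 12.8 CPM at 0 h. At 96 h of CAF-1 OFF the removed barcodes held Itga2b at 222.8 CPM, Gp9 at 196 CPM and Itgb3 at 60.4 CPM, each at most 14.7 CPM at 0 h. At 48 h of HOXA9 OFF they held Itga2b at 101.6 CPM and Gp9 at 67.7 CPM, against 16.7 and 8.92 CPM at 0 h.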

How the results depend on the processing

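No ratio of at least 2-fold changed direction in the settings run, while that of Ppbp at 48 h of HOXA9 OFF, below this size, was −0.20 at no more than 5% mitochondrial UMIs. The counts of members below stand without the share of all genes, which was taken at the main setting alone and can differ between settings. With a pseudocount of 1 CPM, 5 members were higher at 48 h of CAF-1 OFF, 4 higher and 1 lower at 48 h and 2 higher at 96 h of HOXA9 OFF, and the log2 ratios of Pf4 were 4.15, 6.74, −1.84 and −0.85. With 50 CPM, 1 and 3 were higher in CAF-1 OFF, 0 were higher at 48 h and 0 lower at 96 h of HOXA9 OFF, and Pf4 gave 2.67, 5.13 and, at 48 h of HOXA9 OFF, −0.21. TMM and median-of-ratios factors each gave 1 higher and 0 lower at 96 h of HOXA9 OFF. Without Ppbp, 4 members were higher at 96 h of CAF-1 OFF under both factors, without Scrublet calls and against the other arm's 0 h library. With Gp9, 3 were higher at 48 h of HOXA9 OFF under both factors and with all deposited barcodes. Without mitochondrial and ribosomal protein genes in the totals, Pf4 at 48 h of HOXA9 OFF was −0.94. At 1.5-fold, 4 were higher at 48 h of CAF-1 OFF, 1 lower at 48 h and 1 higher at 96 h of HOXA9 OFF. At 4-fold, 1 and 3 were higher in CAF-1 OFF and 0 higher at 48 h and 0 lower at 96 h in HOXA9 OFF. Against the 0 h library of the other arm, chosen after seeing the data, Pf4 gave 4.40, 6.96, −1.42 and −1.10, with 1 and 2 members lower in HOXA9 OFF. The median log2 ratio of all genes at 96 h of HOXA9 OFF was −0.31 with 1 CPM added, a shift of −0.24, and −0.19 without the mitochondrial and ribosomal genes, a shift of −0.13.

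Without thinning, cells with at least 2 members were 4.02%, 30.5% and 70.8% over the CAF-1 OFF times and 3.17% and 3.70% at the first 2 times of HOXA9 OFF. At double the depth they were 14.1% and 44.5% at 48 and 96 h of CAF-1 OFF and 1.35% and 0.469% of HOXA9 OFF. With at least 2 UMIs per gene they were 0%, 0.110% and 1.11% in CAF-1 OFF and 0% at 48 h of HOXA9 OFF. At 0 h of CAF-1 OFF they were 0% with another seed and 0% at no more than 5% mitochondrial UMIs. Cells with Pf4 and Itga2b were 6.04% and 33.3% at 48 and 96 h of CAF-1 OFF and 1.06% at 0 h of HOXA9 OFF without thinning, and 2.68% and 15.9% at double depth. They were 0% at 0 h of CAF-1 OFF with another seed, at 5% mitochondrial UMIs, without Scrublet calls and with 2 UMIs per gene, the last of which gave 0% and 0.111% at 48 and 96 h. Of the 10 genes most like Pf4, 6 were shared with a pseudocount of 1. By Spearman's rho 13 genes tied at the highest value of 1, and 0 of the 10 were among them. The lowest rho of the 10 was 0.820. Among single members, with Pf4 left out of the ratios, 62 log2 ratios and 45 shares moved by more than their counting interval, and 226 and 63 did not. Genes with 0 UMIs in the libraries concerned, such as Gp1bb in all of them, could not move and are among those that did not. The cause was not tested. Depth limits Gp1bb, Gp6, Treml1 and Vwf. No replicate could be left out. No paired analysis was possible because each group has 1 library.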

Other observations

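The cell that held 15 of the 17 Ppbp UMIs at 48 h of HOXA9 OFF had 7695 UMIs, 1837 genes and 5.90% mitochondrial UMIs. It held 92 UMIs of Prg2, 83 of Cpa3, 3 of Mpo, 1 of Gp9, 1 of Itga2b and 0 of Pf4 and S100a8. At a limit of 5% mitochondrial UMIs, which leaves this cell out, the log2 ratio of Ppbp to 0 h was −0.20 there. The cell was chosen after its values were seen.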
